A study of Danio rerio with 5 samples.

Results

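Signal transducers and activators of transcription (STATs) were followed in whole zebrafish larvae as a family of 8 genes (stat1a, stat1b, stat2, stat3, stat4, stat5a, stat5b and stat6). They were picked by gene name, and all 8 were found among the 21854 genes listed. All 8 also passed the limit on low genes, which 20307 genes did. RNA came from larvae at 2 weeks post-fertilization (wpf), with 10 larvae pooled per library, and was prepared from poly(A) RNA with a stranded kit. There were 2 libraries labelled WT, of wild-type larvae, and 3 labelled Mutant, of larvae homozygous for zbtb24mk22, a TALEN-made deletion in the zbtb24 gene. No drug or infection is named for either group, and the deletion is carried in the germline. Mutations of human ZBTB24, a zinc finger gene, cause a form of ICF syndrome, an immunodeficiency with unstable centromeres. The study describes the wild-type larvae as siblings of the mutants, and its wild-type lines as of AB background. Only this allele was sequenced at this age. Whether the pools came from separate clutches is not stated, so p-values measure the spread between these pools. The libraries are called WT 2 and WT 3, after the numbers of their columns, and Mut 1, Mut 2 and Mut 3.

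STATs carry signals from cytokine and hormone receptors to the nucleus. A ligand brings receptor chains together, Janus kinases (JAKs) bound to the receptor add phosphate to a tyrosine of the STAT, and pairs of STATs then bind DNA. In mammals Stat2 serves type I interferon with the partner Irf9, Stat3 serves the interleukin 6 family, Stat4 interleukin 12, Stat5 growth hormone, prolactin and interleukin 2, and Stat6 interleukins 4 and 13. Zebrafish carry the paralogues stat1a and stat1b and the pair stat5a and stat5b. STAT genes can themselves be targets of the pathway.

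The study tracked stat1b by qRT-PCR as a reporter of interferon signalling and displayed it among the innate immune genes of these same libraries, so its rise here is no independent evidence. The primer pair used for that assay is shown because stat1b is the STAT on which the results below turn. Both primers are given 5′ to 3′ in lower case with no part marked.
stat1b forward primer (20 bases): gctgctccaatgaaggttcc
stat1b reverse primer (19 bases): gcaacgggtcttgcaacag
The stat1b gene (ENSDARG00000076182) lies on chromosome 9 in the RefSeq annotation of GRCz12tu, another build than the one used for the counts, so no positions are given.

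Reads counted in the listed genes summed to between 23796792 and 28601962 per library. Values are scaled counts, meaning reads over the size factor each library was given. For zbtb24 itself Mut 1, Mut 2 and Mut 3 had 155, 175 and 282 and the WT libraries 127 and 77.3 (log2 fold change 0.98, adjusted p = 0.0642). The transcript was thus not lower under the Mutant label, and directions are stated for libraries as labelled. Totals per gene do not show whether these transcripts carry the deletion. The source label names fin whereas the series design names whole larvae. All markers looked for in lens (9), brain (8), liver (8) and muscle (7) had reads in every library. Of these tissues lens, brain and liver lie outside the fin. Summed lens markers were lower in the libraries labelled Mutant (64837 to 68050, against 86827 and 87249). Liver markers summed to between 369222 and 396411 there, against 241065 and 281626. Sums for muscle and for fin and skin were also higher in each library labelled Mutant. Brain sums overlapped, at 23255 to 24786 against 24664 and 28647. At an adjusted p under 0.05, 6 of 9 lens markers were lower. Higher were 3 of 8 liver, 2 of 7 muscle and 4 of 8 fin and skin markers, and 0 brain markers were called. Of all tested genes 2.68% were lower and 3.32% higher, and these lists are short. In RNA of whole larvae, more cells of a type and more RNA per cell cannot be told apart.

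Among the 8 STATs only stat1b was called at an adjusted p under 0.05. It was 2.40-fold higher in the libraries labelled Mutant, while its paralogue stat1a was 1.12-fold higher in the mean without passing the test. The other 6 did not pass either. Across all tested genes 3.32% were called higher and 2.68% lower at an adjusted p under 0.05, and 1 call among 8 genes is too few to set against those shares. The median log2 fold change of the 8 was 0.14, beside -0.0014 over all tested genes.

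**Figure D1:**
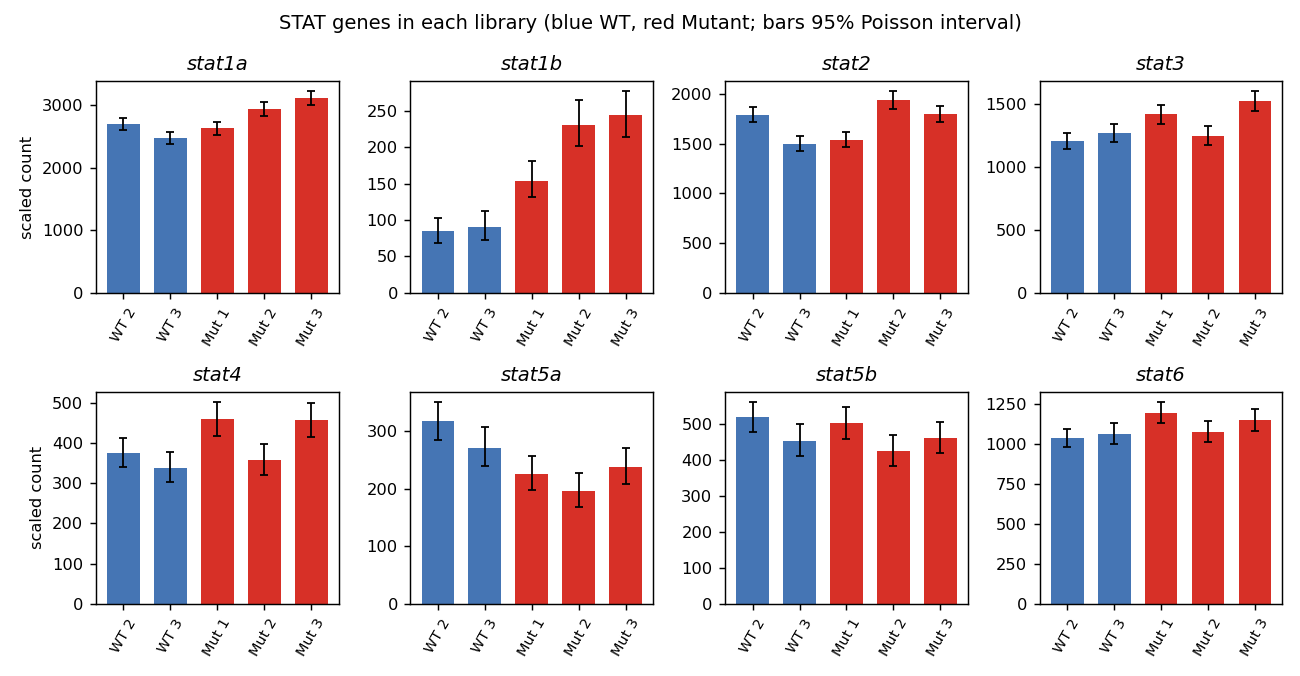
Scaled counts (y axis, from 0, with a scale of its own in each panel) of the 8 STAT genes in the 2 libraries labelled WT (blue) and the 3 labelled Mutant (red); error lines are exact Poisson intervals at 95% and cover counting error only. For stat1b every red bar exceeds both blue bars (154 or more against 91.0 or less), for stat5a every red bar is below both, and for stat1a, stat2, stat3, stat4 and stat5b the groups overlap.

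Scaled counts of stat1b were 84.4 in WT 2 and 91.0 in WT 3, and 154, 231 and 244 in Mut 1, Mut 2 and Mut 3. The groups did not overlap, and Mut 1 lay nearest to the libraries labelled WT. Such separation was found in 3 of the 8 STATs and in 44.9% of all tested genes, so it is common in this table. Means were 87.7 ± 4.72 (SD, n = 2) and 210 ± 48.7 (SD, n = 3). In limma the log2 difference was 1.22 (95% interval 0.76 to 1.69, SE 0.21), with an adjusted p of 0.0205. The fold change on this log2(scaled count + 1) scale understates the change of low genes. In the order of fold changes 128 of 20307 genes rose more. The values of stat1b rest on 86 to 242 reads, and the counting interval of Mut 1 (131 to 181) lies above that of WT 3 (72.8 to 112). The call was lost without WT 2, a fit with 1 WT library left (log2 fold change 1.17), and without Mut 2 (1.14, adjusted p = 0.0868). Among all tested genes 48 were higher and 22 lower without Mut 2, against 674 and 544 with all libraries. The call of stat1b was not lost without WT 3, Mut 1 or Mut 3.

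stat1a (ENSDARG00000006266), the paralogue of stat1b, was counted at 2697 in WT 2 and 2472 in WT 3, and at 2630, 2934 and 3113 in Mut 1, Mut 2 and Mut 3. Mut 1 lay between both wild-type values, so the groups overlapped. Its log2 difference of 0.16 (SE 0.10) had an adjusted p of 0.352. The 95% interval, -0.07 to 0.39, ends below the lower end of the interval of stat1b at 0.76. Reads of stat1a were far more numerous than those of stat1b in every library (2335 to 3133), but transcript lengths were not used here and levels of different genes are therefore not compared.

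The balance between the paralogues was compared within libraries, where library scaling cancels. Transcript lengths still enter each share and ratio, and they cancel only where log2 ratios are compared between libraries. Reads of stat1b made up 3.03% (95% Wilson interval 2.5 to 3.68) and 3.55% (2.89 to 4.37) of the reads of stat1a and stat1b together in WT 2 and WT 3. In the libraries labelled Mutant the share was 5.54% (4.76 to 6.45), 7.31% (6.42 to 8.31) and 7.28% (6.45 to 8.21). None of the intervals of one group overlapped with one of the other, and these intervals cover counting error only. On the log2 scale the ratio of stat1b to stat1a was -4.98 in WT 2 and -4.75 in WT 3, and in Mut 1 to Mut 3 it was -4.08, -3.66 and -3.67. The means differed by 1.06, with an exact two-sided permutation p of 0.1, which is the smallest that 2 libraries against 3 allow (adjusted p = 0.2 over 7 ratios). The difference lay between 0.95 and 1.20 when any library was left out.

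Relative to each of the other 6 STATs the stat1b ratio was likewise higher in every library labelled Mutant than in both labelled WT. The log2 ratio moved most against stat5a, by 1.64, and least against stat4, by 0.98. Exact permutation p-values were 0.1 against stat2 and stat5a and 0.2 against stat3, stat4, stat5b and stat6. All 7 adjusted values were 0.2. These 7 ratios share the values of stat1b and do not count as separate evidence.

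**Figure D2:**
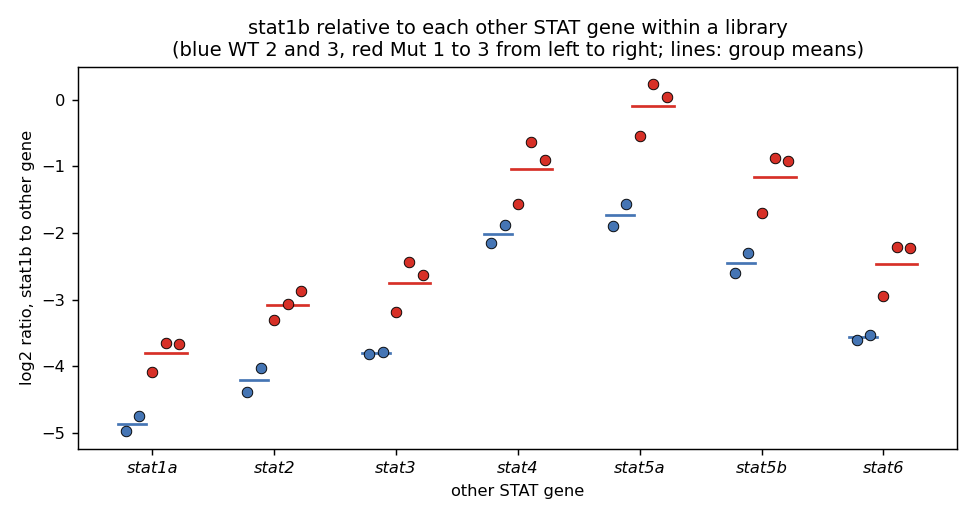
Log2 ratio of stat1b to each other STAT gene within a library (y axis), with 1 point per library, WT in blue and Mutant in red, and group means as lines. All 3 red points lie above both blue points for every gene, with means that differ by 0.98 (stat4) to 1.64 (stat5a); the height of a column of points also depends on the lengths of the genes and is not compared between genes.

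stat2 (ENSDARG00000031647) encodes a part of the complex that answers type I interferon. WT 2 and WT 3 held 1794 and 1500 scaled counts of it, and the Mutant libraries 1543, 1938 and 1798. The groups overlapped, with WT 3 lowest and WT 2 among the values of the Mutant libraries. The log2 fold change was 0.09 (95% interval -0.18 to 0.37, adjusted p = 0.661).

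stat3 (ENSDARG00000022712) acts downstream of interleukin 6 and related cytokines. Its values of 1209 and 1269 in WT 2 and WT 3 compared with 1421, 1251 and 1527 in Mut 1, Mut 2 and Mut 3. Only Mut 2 fell within the range of the libraries labelled WT. The log2 fold change of 0.17 (95% interval -0.08 to 0.42) did not pass (adjusted p = 0.350).

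stat4 (ENSDARG00000028731), which in mammals serves interleukin 12 in lymphocytes, reached 376 and 339 scaled counts in WT 2 and WT 3, compared with 460, 358 and 458 in Mut 1 to Mut 3. Mut 2 again overlapped with them. The log2 fold change was 0.24 (95% interval -0.08 to 0.56, adjusted p = 0.306).

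stat6 (ENSDARG00000015902) transmits signals of interleukins 4 and 13. WT 2 had 1037 and WT 3 had 1063 scaled counts, below the 1195, 1077 and 1151 of Mut 1, Mut 2 and Mut 3. These ranges did not overlap, although the gap between WT 3 and Mut 2 was within their counting error. At 0.12 on the log2 scale (95% interval -0.10 to 0.34) the difference did not pass (adjusted p = 0.472).

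Neither gene of the Stat5 pair, which serves growth hormone and prolactin, passed the test. For stat5a (ENSDARG00000019392) the scaled counts stood at 317 and 271 in WT 2 and WT 3 and at 226, 196 and 237 in Mut 1 to Mut 3. All 3 values of the latter were below both of the former. The log2 fold change was -0.42 (SE 0.15, 95% interval -0.74 to -0.10), with an adjusted p of 0.107 that lay between 0.0565 and 0.504 over the alternatives. stat5b (ENSDARG00000055588) had scaled counts of 519 and 454, against 503, 425 and 461, and the groups overlapped. Its log2 fold change was -0.07 (95% interval -0.35 to 0.21, adjusted p = 0.745). The log2 ratio of stat5a to stat5b was -0.71 in WT 2 and -0.74 in WT 3, with -1.15, -1.11 and -0.95 in the Mutant libraries. The means differed by -0.35, with the smallest exact permutation p the design allows, 0.1, and this ratio was added after the values of both genes had been seen.

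**Figure D3:**
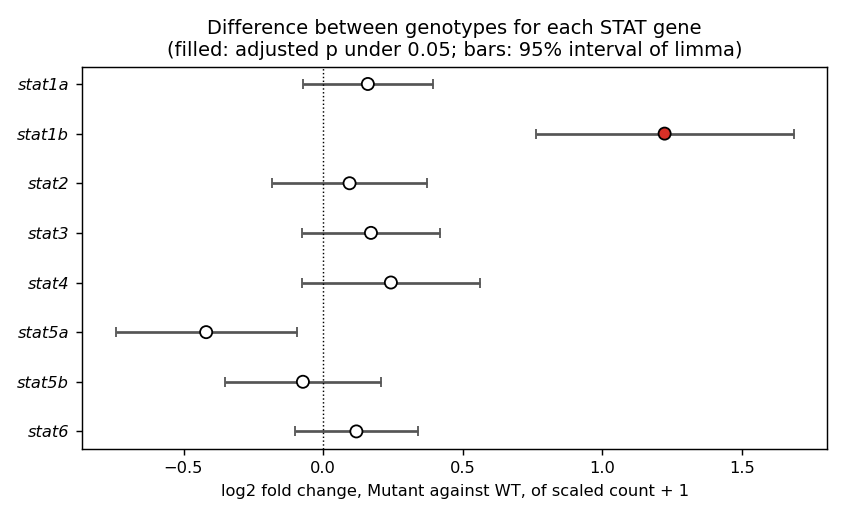
Log2 fold change of each STAT gene in the libraries labelled Mutant against those labelled WT (x axis, of scaled count + 1), with 95% intervals of limma as lines; a filled point has an adjusted p under 0.05. Only stat1b is filled, at 1.22, and the interval of stat5a (-0.74 to -0.10) also lies off 0 but its adjusted p was 0.107.

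The order of genes along the chromosomes placed stat1b next to stat4 on chromosome 9 and stat3 next to stat5a on chromosome 3, while stat1a lies on chromosome 22, stat2 on 6, stat5b on 12 and stat6 on 23. The gene for a glutaminase lies beside stat1a (glsa) and close to stat1b (glsb). Neither passed the test, with log2 fold changes of -0.34 for glsa (adjusted p = 0.187) and 0.20 for glsb (adjusted p = 0.283). Of the genes that are no STAT among the nearest on each side of a member, slc40a1, which encodes the iron exporter ferroportin and is the second gene from stat4, was called. It rose from 2703 to 4284 in mean scaled count (log2 fold change 0.65, adjusted p = 0.0394). The gene between it and stat4, wdr75, was at -0.02 (adjusted p = 0.933). Across all tested genes 3.32% were called higher and 2.68% lower. The neighbours are too few for a call among them to be set against those shares.

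The genes with profiles most like that of stat1b were sought by the root mean square difference between log2 values centred on the mean of each gene over the 5 libraries. With so few libraries many genes come close by this measure. The 6 nearest were CR788316.1 (0.091), si:ch73-343g19.5 (0.10), CABZ01059412.1 (0.11), L3HYPDH (0.12), BX324215.1 (0.12) and zgc:152791 (0.13). CR788316.1, the nearest, had a mean scaled count of 225 in WT and of 496 in Mutant libraries. In all 6 Mut 1 was the lowest of the 3 libraries labelled Mutant, which follows from their selection for likeness to stat1b. Among them si:ch73-343g19.5 and CABZ01059412.1 were low, with means of 5.76 and 10.4 in WT libraries. These 2 genes did not pass the test (adjusted p = 0.0786 and 0.0687). The nearest other STAT was stat1a, at 0.55, and 4269 other genes lay at a smaller distance.

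**Figure D4:**
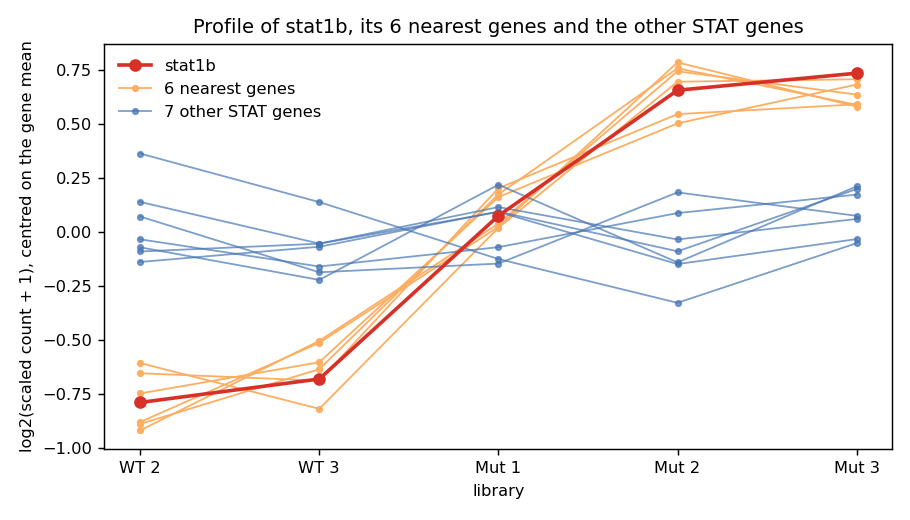
Log2(scaled count + 1) of stat1b (red), of its 6 nearest genes (orange) and of the 7 other STAT genes (blue) in each library (x axis), centred on the mean of each gene (y axis); lines join the values of a gene, and libraries of a group have no order. The orange genes were selected for their likeness to stat1b, and the blue genes stay between -0.33 and 0.36 in every library.

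Upstream of the STATs 1 gene was called, in the receptor list. None of the 5 JAK kinases tested, which add the activating phosphate, passed the test, and their log2 fold changes lay between -0.01 and 0.33 with a median of 0.12. Mean scaled counts were 2531 and 2865 for jak1, which pairs with interferon receptors, and 936 and 930 for jak2b. Of 32 ligand symbols written down 16 were found and 10 could be tested, and 0 passed. No interferon was among those tested. The genes ifnphi1 and ifnphi3 fell below the limit on low genes, and ifnphi2, ifnphi4, ifng1 and ifng1r were not found. The ligand il6 was not found either. The ligands with the highest counts were growth hormone (gh1, 662 against 494, adjusted p = 0.239) and il15 (267 against 287, adjusted p = 0.651). Of 33 receptor genes tested 1 was higher (3.03%, near the 3.32% of all tested genes), il22ra2, which in mammals encodes a soluble decoy for interleukin 22. WT 2 and WT 3 had 23.2 and 20.1 scaled counts, and each Mutant library had over 3 times as many, at 75.2, 82.9 and 75.8 (log2 fold change 1.80, SE 0.21, adjusted p = 0.00577). The shared receptor chain il6st and the growth hormone receptor ghrb, the most counted of the list, were at 0.12 and -0.14 and did not pass. Chains of interferon receptors did not pass either, such as crfb1 at 0.01, crfb2 at -0.01, ifngr1 at -0.03, crfb6 at 0.15 and crfb17 at 0.18. The chain crfb5 was not found and so was not tested.

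Inhibitors of the pathway moved in both directions, with 3 of 20 lower and 1 higher, beside 2.68% and 3.32% of all tested genes. The falls were those of socs1a, socs2 and cish, SOCS family proteins that shut down JAKs or receptors. For socs1a, WT 2 had 582 and WT 3 had 350 scaled counts, and Mut 1 to Mut 3 had 198, 173 and 194 (log2 difference -1.26, SE 0.20, adjusted p = 0.0158). The Mutant values lay close together and below WT 3. For cish they were 1993 and 1411 against 1122, 1101 and 1119 (log2 fold change -0.59, adjusted p = 0.0396), and for socs2 1192 and 829 against 656, 495 and 579 (-0.79, adjusted p = 0.0318). In each of these 3 genes WT 2 was well above WT 3. The rise was that of the gene listed as USP41, called usp18 in a table of gene names, which in mammals removes Isg15 and dampens the interferon receptor (35.1 to 77.1 in the mean, adjusted p = 0.0327). The phosphatases ptpn1 and ptpn11a, the most counted of the rest, were at 0.02 and 0.16. Without Mut 2 none of the 20 was called. That fit called 48 genes higher and 22 lower among all tested genes, against 674 and 544 with all libraries. The rise of USP41 was lost when any library was left out. The number of falls was 2 without Mut 1 or Mut 3. Among all tested genes 240 were then higher and 197 lower without Mut 1, and 662 and 470 without Mut 3. Falls are not counted for fits with 1 WT library left. None of the 10 tested STAT partners passed either, such as the acetyltransferases ep300b (-0.31, adjusted p = 0.122) and crebbpb (-0.21, adjusted p = 0.251) or irf9 (0.20, adjusted p = 0.351).

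Targets of STAT3 moved in both directions. Of 21 tested, which include acute phase and growth genes, 2 were higher and 5 lower (9.52% and 23.8%, beside 3.32% and 2.68% of all tested genes). The median log2 fold change was 0.21, and 11 of the 21 lay above 0. The largest, 1.87, belonged to a gene that did not pass. The falls were those of mych (log2 fold change -0.85, adjusted p = 0.0127), cebpd (-0.69), mycb (-0.66), cebpb (-0.62) and pim1 (-0.37, adjusted p = 0.0498). They are transcription factors of growth and inflammation and, for pim1, a kinase. For mych, scaled counts were 3734 and 2915 against 1779, 1759 and 1976. Survivin, encoded by birc5a and needed in cell division, rose from 159 to 328 in the mean (1.05, adjusted p = 0.0205), and the fibrinogen chain fgg from 4691 to 6240 (0.42, adjusted p = 0.0463). The fibrinogen chains fga (0.27) and fgb (0.32) did not pass. Liver markers were higher in the same libraries, and their part in these values was not tested.

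Of 12 STAT5 targets 3 were lower (beside 2.68% of all tested genes), cish, socs2 and pim1, which are also counted above. Another 3 were higher (beside 3.32%), namely the transferrin receptor tfr1a of red cells (0.68, adjusted p = 0.0330), the insulin-like growth factor carrier igfals (0.86, adjusted p = 0.0405) and the repressor bcl6ab (0.56, adjusted p = 0.0485). The most counted of the rest, tfr1b (0.50) and igfbp1a (-0.38), did not pass, and igf1 itself was at 0.03 (adjusted p = 0.960). Of 7 targets of STAT4 or STAT6, 1 was higher (beside 3.32%), the mucin muc5.2, with 170 and 321 against 799, 791 and 492 (1.53, SE 0.27, adjusted p = 0.0212). The chitinase chia.2 was at -0.05, and the arginase arg2 at -0.71 (adjusted p = 0.0531). Without Mut 2 none of the targets of STAT3, STAT4, STAT5 or STAT6 was called. Among STAT3 targets 1 was higher and 4 lower without Mut 1 or Mut 3. Among STAT5 targets 0 were higher and 1 lower without Mut 1, and 2 and 1 without Mut 3. The calls among all tested genes moved in the same fits. They were 48 higher and 22 lower without Mut 2, 240 and 197 without Mut 1, and 662 and 470 without Mut 3. With all libraries they were 674 and 544. Fits with 1 WT library left are not counted here. The balance also moved with the scaling. With columns rescaled to equal totals 2 STAT5 targets were higher and 4 lower, and under voom 1 and 4. Under both, 1 STAT3 target was higher and 6 lower. Among all tested genes 481 were then higher and 1103 lower with equal totals, and 485 and 1246 under voom.

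**Figure D5:**
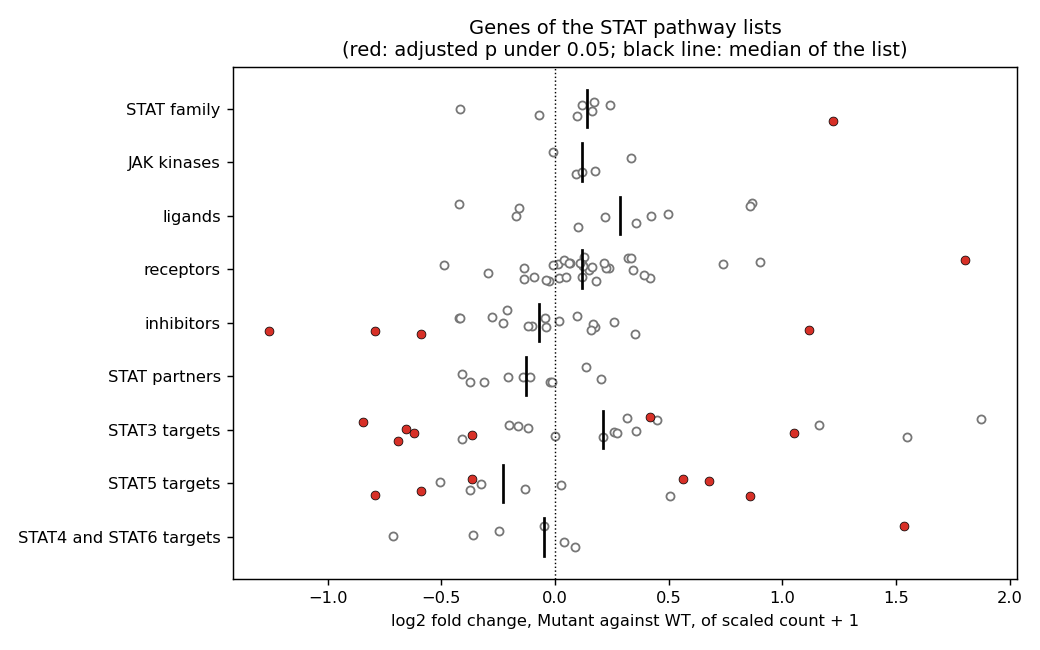
Log2 fold change, Mutant against WT (x axis, of scaled count + 1), of each tested gene of the STAT family and of the pathway lists described here (y axis), with red points for an adjusted p under 0.05 and a black line at the median of a list; genes in more than 1 list appear in each. Medians lie between -0.23 (STAT5 targets) and 0.29 (ligands), and the inhibitors and the targets of STAT3 and STAT5 have red points on both sides of 0.

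Blood cell markers were counted beside these values. All 9 macrophage markers had reads in every library and their summed scaled counts were 1204 in WT 2 and 1302 in WT 3, and ran from 1603 to 1647 in the Mutant libraries. Of these 9 only mpeg1.1 was called (log2 fold change 0.67, adjusted p = 0.0209). Across all tested genes 3.32% were called higher and 2.68% lower, and 9 markers are too few to set against those shares. The 7 neutrophil markers summed to 2977 and 3008 against 3419 to 5196, highest in Mut 1. Of these markers 0 were called, again too few genes to set against the shares of all genes. Of 13 lymphocyte markers 7 were found, with sums of 466 and 467 against 492 to 815. The part of these cells in the values of stat1b was not tested.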

How the data were processed

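Paired-end libraries were made from poly(A) RNA of pooled larvae (stranded kit). Alignment by the authors was to danRer7 with STAR in 2 passes, followed by HTSeq 0.5.3 on an Ensembl annotation and DESeq scaling. Each deposited value is a signal, a gene's read count over the size factor of its library, plus 1. Whether counting used strand is not stated, so overlapping genes are uncertain. After 1 was subtracted, every value was a whole multiple of a step per library (to within 0.02 reads), which gave reads per gene. Summed over the listed genes, each library had 23796792 to 28601962 reads.

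Columns labelled WT could not be tied to single samples and entered by group. Log2(scaled count + 1) was tested two-sided with limma 3.58.1 (R 4.3.3, intensity trend, no covariate) over genes with a mean of at least 10 (20307 genes; 1547 left out), with Benjamini-Hochberg adjustment and calls under 0.05. Ratios were tested by exact permutation over libraries. Pairs of libraries within a group differed by more than sampling noise (chi-square per gene from 11.1 to 17.3, the latter for WT 2 and WT 3). Pairs across the groups ranged from 17.6 (WT 3 and Mut 3) to 51.7 (WT 2 and Mut 2).

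Members, lists and named genes were chosen with earlier results of these data known. Named genes were the members, zbtb24, up to 8 called genes per list with the smallest p, the 2 most counted others, the 6 nearest profiles and called neighbours. A few further genes were named after their values were seen. Symbols were matched by table name, gene name table and RefSeq synonyms (160 of 191 pathway symbols). The result of 1 pathway list is not reported here, though its genes are part of the counts over all pathway genes. In total 14 alternatives were run (pseudocounts of 0.5 and 8, no low filter, a minimum of 50, equal totals, quantile normalization, voom, robust empirical Bayes, each library left out, and a block by column number added after the data were seen).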

Additional observations from a re-analysis of the deposited data

How the results depend on the processing

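The rise of stat1b was called in 12 of 14 alternatives, with log2 fold changes of 1.1 to 1.43 and adjusted p from 0.000436 to 0.114. It was not called without WT 2 (1.17) or without Mut 2 (1.14). A fit that leaves out a WT library assumes that the lone one varies like the others. When libraries were left out singly, 0 to 1 STATs were higher, 31 to 1317 genes were higher and 13 to 1111 lower among all genes, and 1 to 26 pathway genes were higher and 0 to 12 lower (19 and 8 with all libraries). Each of these fits had fewer samples, and the cause of the changed counts was not tested. Rescaling to equal totals gave 1103 lower genes in place of 544 and 13 lower pathway genes, and voom gave 1246 and 13. Under both the median of all genes moved to -0.09, and rises made up 30.4% and 28% of the calls, against 55.3%. With a library left out, the log2 fold change of stat5b ranged from -0.17 to 0.024 (above 0 without WT 2). That of stat2 ranged from -0.034 to 0.22 (below 0 without WT 3). The median of STAT3 targets, 0.21 with all libraries, then ranged from -0.049 to 0.17 (below 0 without WT 3). At a minimum of 50, medians turned to -0.029 for ligands and -0.0026 for STAT3 targets. The exact tests of ratios cannot pass at this size and say nothing about stability, but their direction stayed. Of the planned tests on the recovered reads only voom was run, and tests with a count model were not. A replicate block by column number, chosen after seeing the data, left 1 residual degree of freedom. Nothing states that the numbers pair libraries, and across genes the deviations of same-numbered libraries from their group means correlated at -0.15 and -0.13. With this block 523 genes were higher and 487 lower, 1 STAT was higher, stat1b was at 1.43 (adjusted p = 0.000436), zbtb24 passed at 1.16 (adjusted p = 0.0114), and the median of STAT3 targets turned to -0.076. With 86 to 242 reads, the depth limits how finely libraries can be told apart in stat1b.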
